A study of Mus musculus with 2 samples.

Results

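The Notch pathway was described across 35 genes in limbs of mouse embryos. These are the 4 receptors, 6 ligands or ligand-like genes, 3 genes of ligand trafficking and Notch inhibition and 4 glycosyltransferases. The rest are 6 genes of the cleaving enzymes, 4 genes of the nuclear complex and 8 genes listed as targets, Hes6 among them by family. The members were taken by symbol from a list of pathway genes, and no rule used their measured values. Earlier results of these data were known when the list was chosen. All 35 were found among the 43346 Ensembl genes of the tables. The tissue was limb of the B6NCrl mouse strain at embryonic day 13.5, with embryos of both sexes pooled, and no allele, transgene or treatment is named for it. There was 1 group with 2 libraries, biological replicates 1 and 2, which are separate tissue samples under 1 donor entry. Neither the kind of limb, fore or hind, nor separate litters are named in the labels, so the spread between the libraries may be partly technical. The input was 10 ng of total RNA above 200 nt per library, extracted with mirVana and given ERCC spike-ins. No conditions can be compared within 1 group, and the levels of the members, their order, their transcripts and their spread between the libraries are what the data can show.

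Notch receptors are single-pass membrane proteins that are activated by Delta and Jagged ligands on neighbouring cells. Ligand binding exposes the receptor to an ADAM protease and then to gamma-secretase, and the released intracellular part joins the DNA-binding protein RBPJ and a Mastermind-like protein to switch on genes such as those of the Hes and Hey families. In the limb the pathway is known for roles in blood vessels, muscle progenitors, cartilage and the ectodermal ridge.

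Replicate 1 held 31927117 expected counts and replicate 2 held 43194518, where an expected count is a model-based estimate that need not be whole. Levels are given as TPM, an abundance per length, so that genes can be set side by side. Values with ± are the mean and SD of both libraries (n = 2). The tissue label was checked against markers: 7 of 7 limb mesenchyme genes were detected, as were 5 of 5 chondrocyte, 4 of 6 myogenic, 9 of 9 endothelial, 4 of 5 arterial, 6 of 6 mural, 5 of 5 epidermal, 5 of 5 macrophage and 4 of 4 red cell genes. Tbx5, a forelimb factor, was at 25.2 and 36.5 TPM in replicates 1 and 2, while the hindlimb factors Tbx4, at 24.4 and 20.9 TPM, and Pitx1, at 90.4 and 73.8 TPM, were lower in replicate 2. The part of this difference in the members' spread between the libraries was not tested. The libraries differed by more than counting noise, with a common biological coefficient of variation of 5.19% from edgeR. In such bulk samples fewer cells of a type and less RNA per cell cannot be told apart.

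Of the 35 members, 33 reached 1 TPM in both libraries, the level called detected here, while 34.6% of all genes and 61.0% of protein-coding genes did. Hes5 and Hes7 did not. The median of the members was 12.3 TPM, below the medians of 17.2 TPM over all detected genes and 20.6 TPM over detected protein-coding genes. At 10 TPM or more stood 22 members, and 1 member, Psenen, was above 100 TPM. The levels ran from 0.795 TPM for Hes7 to 117 TPM for Psenen. Summed by role, the genes of the cleaving enzymes held 319 ± 1.70 TPM and the targets 179 ± 2.62 TPM, while the receptors held 63.0 ± 3.95 TPM and the ligands 39.3 ± 1.39 TPM. Hes6, listed with the targets by family, held 53.3% of their sum. To say whether members of a role differed in level, the log2 ratio of a pair was taken in each library, with 0.1 TPM added. A pair was called past the spread when its sign was shared by both libraries and its mean ratio was over 2 times the combined replicate SD, which was pooled for each gene over 500 genes of like abundance. Of 79 such pairs 68 were past the spread and 11 were not. The spread measures variation between the libraries only. Errors in a gene's length or transcript models, shared by both libraries, lie outside it. The share among other pairs of genes was not taken. No p-value is given, since an exact test on 2 libraries cannot reach 0.05.

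**Figure D1:**
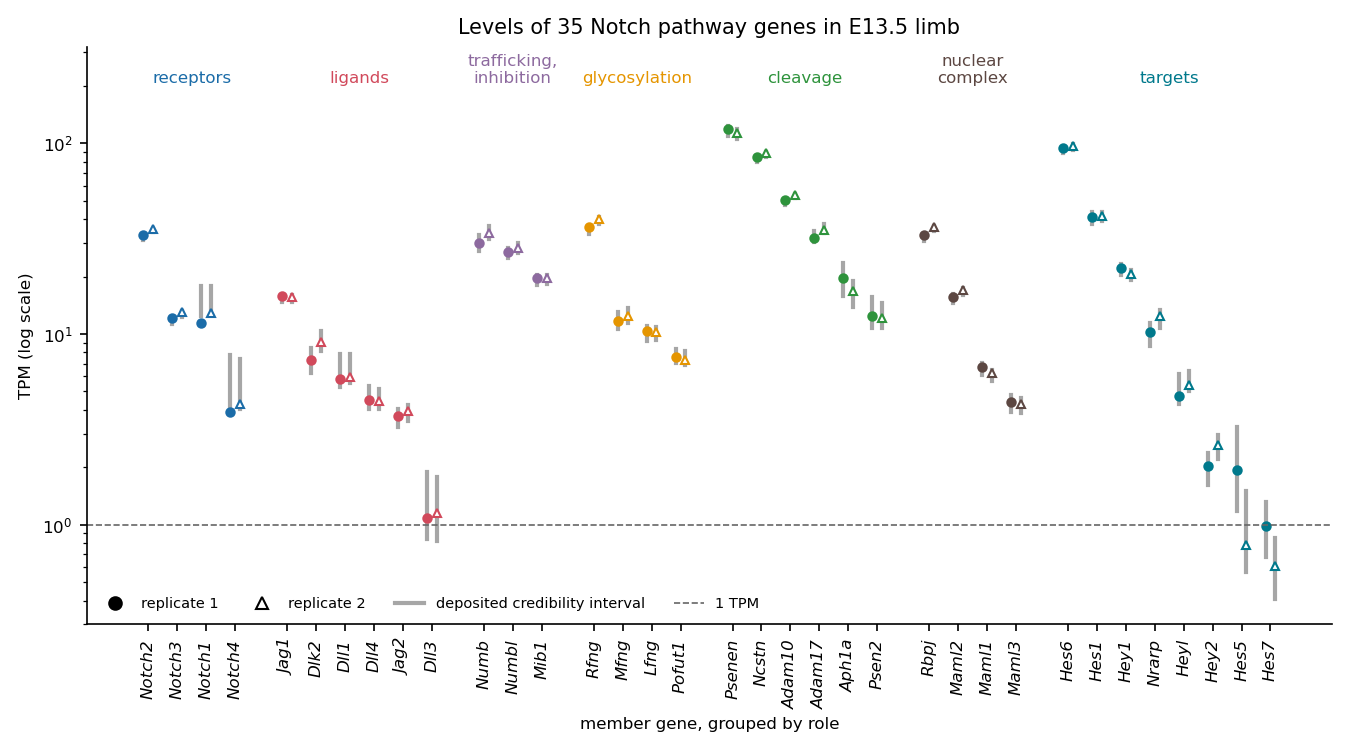
TPM of the 35 members on a log axis, grouped by role, with replicate 1 as filled circles, replicate 2 as open triangles, the deposited credibility interval of each value in grey and 1 TPM as a dashed line. Psenen and Hes6 stand at the top, and Hes5 and Hes7 are the members with a library under the line.

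Upstream sequences are shown first for targets and a glycosyltransferase, since RBPJ is known to bind DNA at a short core motif. The motif searched was TGGGAA, on either strand, in the 250 bases before each gene start in a RefSeq promoter table of GRCm38.p6, the assembly also called mm10. It was present for 9 of the 30 members that the table holds, and 24.1% of all 27025 genes of that table had it. Those 9 were Hes5, Hes7, Hey2, Lfng, Rbpj, Maml2, Maml3, Psen2 and Psenen. Some genes have several starts in that table, and a match before any of them was counted. For Psen2 the match lay only before a start 10350 bases from that of its most abundant transcript, whose own window held 0 matches. Hes1, Hey1, Heyl, Mfng and Mib1 were not matched in the table. The longer GTGGGAA, which contains the core, was present for 5 members, compared with 6.18% of the table's genes. Each sequence below is the strand of its gene, 5′ to 3′, ending at the base before the RefSeq gene start, and capitals mark the core or, where it lies on the other strand, its reverse complement TTCCCA.
Hes5, chr4:154960673-154960922, plus strand: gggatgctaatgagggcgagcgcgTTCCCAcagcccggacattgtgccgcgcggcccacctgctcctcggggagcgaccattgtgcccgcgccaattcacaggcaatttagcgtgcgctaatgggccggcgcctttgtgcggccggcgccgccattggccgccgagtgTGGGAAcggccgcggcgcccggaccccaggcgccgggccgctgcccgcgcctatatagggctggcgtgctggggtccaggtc
Hey2, chr10:30842784-30843033, minus strand: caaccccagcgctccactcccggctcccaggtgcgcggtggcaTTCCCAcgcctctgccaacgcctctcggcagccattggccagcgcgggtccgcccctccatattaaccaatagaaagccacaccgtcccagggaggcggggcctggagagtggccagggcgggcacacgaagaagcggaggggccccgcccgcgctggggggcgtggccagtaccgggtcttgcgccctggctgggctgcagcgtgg
Lfng, chr5:140607091-140607340, plus strand: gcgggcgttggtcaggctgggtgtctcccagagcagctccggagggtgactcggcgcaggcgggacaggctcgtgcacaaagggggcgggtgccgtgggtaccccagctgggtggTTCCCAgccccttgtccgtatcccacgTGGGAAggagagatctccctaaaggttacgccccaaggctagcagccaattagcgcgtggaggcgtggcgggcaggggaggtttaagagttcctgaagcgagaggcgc
Nrarp, chr2:25180508-25180757, plus strand: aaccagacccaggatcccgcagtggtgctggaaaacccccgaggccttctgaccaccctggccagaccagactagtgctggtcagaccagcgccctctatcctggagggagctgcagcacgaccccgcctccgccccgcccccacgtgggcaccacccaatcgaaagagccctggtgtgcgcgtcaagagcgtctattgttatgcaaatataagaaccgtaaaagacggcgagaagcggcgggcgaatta

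In these windows Hes5 held 2 matches, whose first bases lay 226 and 82 bases before the start. Lfng also held 2, at 135 and 108 bases, and Hey2 held 1, at 207 bases. Nrarp, a target, is shown because its window held none, as did those of Hes6, the 4 receptors and the 5 Delta and Jagged ligands. For the levels beside these windows, Hes5 with 2 matches was at 1.35 TPM and Hes6 with none was at 95.7 TPM. A match is a run of letters and not a site of binding, and a window without one says nothing of RBPJ.

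Among the receptors Notch2 was the most abundant, and it held 54.3% ± 0.347 of their summed TPM. Notch2 (chromosome 3, 98013527 to 98150361, mm10) stood at 32.9 TPM in replicate 1 and 35.6 TPM in replicate 2. Notch3 (chromosome 17, 32120820 to 32166852), a receptor known from vascular mural cells, was at 12.1 and 13.1 TPM, and Notch1 (chromosome 2, 26457903 to 26516663) at 11.4 and 12.9 TPM. Notch4 (chromosome 17, 34564268 to 34588503), known from endothelium, was lowest at 3.89 and 4.31 TPM. No library of a receptor overlapped the next one in order except for Notch3 and Notch1. Notch2 was 2.71-fold above Notch3 and Notch1 was 2.91-fold above Notch4, both past the spread, whereas Notch3 and Notch1 differed by a log2 ratio of 0.05, within it. The deposited posterior mean, another estimate of the same abundance, put Notch1 at 15.2 TPM. In both libraries the credibility interval of Notch1 lay above its TPM, from 12.4 to 17.8 TPM in replicate 1 and from 13.5 to 17.9 TPM in replicate 2.

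Notch4 was also the receptor whose TPM rested least on coding transcripts. Its 1 transcript typed as coding, Notch4-201 of 1964 residues, held 38.7% of the gene's TPM in replicate 1 and 41.6% in replicate 2. It held most of the reads, with 203 of 222 expected counts in replicate 1 and 322 of 346 in replicate 2. Most of the rest of the TPM was given to short non-coding models that differed between the libraries. Notch4-203 held 51.0% and then 5.94%, and Notch4-209 held 0% and then 31.0%, each on fewer than 11 counts per library. On coding transcripts alone Notch4 stood at 1.5 and 1.79 TPM. Notch1-201, the 2531-residue receptor, held 86.3% and 84.8% of Notch1, and Notch2 and Notch3 had 1 transcript each. The markers of endothelium summed to 203 TPM in replicate 1 and 204 TPM in replicate 2, and those of mural cells to 291 and 303 TPM, of which Acta2, also a gene of smooth and early striated muscle, held 231 and 232 TPM while the pericyte gene Abcc9 was at 1.18 TPM. Their part in the receptor levels was not tested.

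Of the ligands Jag1 was highest and Dll3 lowest. Jag1 (chromosome 2, 137081456 to 137116644), a Jagged ligand, stood at 15.9 and 15.7 TPM and made up 50.7% ± 0.719 of the summed TPM of the 5 Delta and Jagged ligands. Dll1 (chromosome 17, 15367354 to 15376872), a Delta ligand known from muscle progenitors and somites, was at 5.80 and 5.93 TPM. Dll4 (chromosome 2, 119325784 to 119335962), the Delta ligand of arterial and sprouting endothelium, was at 4.50 and 4.47 TPM. Jag2 (chromosome 12, 112907819 to 112929776), known from the apical ectodermal ridge, was at 3.73 and 3.95 TPM. Each of these ligands varied little between libraries compared with the gap between Jag1 and the others. The step from Dll1 to Dll4 was 1.30-fold and that from Dll4 to Jag2 was 1.16-fold, both within the spread of genes of like abundance, and Dll1 over Jag2 at 1.51-fold was also within it. The order of Dll1, Dll4 and Jag2 is thus not resolved by 2 libraries.

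Dll3 (chromosome 7, 28293553 to 28302238), a Delta family member that acts inside the signalling cell as an inhibitor and is known from somite formation, was at 1.09 and 1.15 TPM on 45 and 54 expected counts. A short model with a retained intron, Dll3-202, held 27.1% and 41.9% of that TPM, on only 3.46 and 7.54 expected counts. The coding transcript held most of the reads, with 41.5 and 46.5 expected counts. Alone it was at 0.790 and 0.670 TPM, under the detection level. Jag2 exceeded Dll3 by 3.23-fold, past the spread at 2 but not at 3 times the SD. None of 6 markers of presomitic mesoderm and somites was detected, with T highest at 0.655 TPM and Ripply2 at 0 in both libraries. Dlk2 (chromosome 17, 46297421 to 46303271), a membrane protein related to Delta that lacks the receptor-activating domain, was at 7.28 and 9.12 TPM, below Jag1 by 1.92-fold. It was not past the spread above Dll1, at 1.38-fold, and it was below Dll1 in expected counts not divided by length. Its paralog Dlk1, which is not among the members, held 97.5% ± 0.255 of the summed TPM of the pair, at 308 and 333 TPM. Dlk2 transcripts differed in share between the libraries: Dlk2-203 held 60.9% and then 44.1%, and Dlk2-202 held 34.3% and then 49.5%. Both encode 382 residues.

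Ligands need the ubiquitin ligase Mib1 for their uptake in the signalling cell, while Numb and its homolog Numbl bind receptors and promote their removal. Numb was at 30.0 and 34.0 TPM, Numbl at 26.8 and 28.4 TPM and Mib1 at 19.6 and 19.6 TPM. Numb and Numbl differed by 1.16-fold, within the spread, and Numbl exceeded Mib1 by 1.40-fold, past it. The related ligase Mib2, not a member, held 57.8% ± 2.07 of the summed TPM of Mib1 and Mib2.

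The transcripts of Numb and Mib1 gave more detail than their gene levels. Numb proteins are known in forms with or without an insert in the phosphotyrosine-binding domain and another in the proline-rich region. Numb-204, the 593-residue form that lacks both, held 47.7% and 49.9% of Numb, on 1028 and 1621 expected counts. The transcripts of 604, 642 and 653 residues were assigned 0 counts in both libraries. Their posterior mean counts lay between 3.57 and 9.87, so few reads were placed in the longer forms. These 3 models hold coding sequence alone, whereas Numb-204 at 3549 nt includes untranslated parts, which gives it more places for reads to fall. A 148-residue model, Numb-208, held 17.2% and 24.6%, a retained intron model 20.1% and 15.8%, and Numb-203, typed as subject to nonsense-mediated decay, 10.2% and 9.68%. For Mib1 the share depended on the scale. The full ligase of 1006 residues, Mib1-201, held more expected counts, 1370 and 1705, than the 264-residue Mib1-204 with 711 and 965. After division by length the order turned, with Mib1-204 at 66.3% and 67.9% of TPM and Mib1-201 at 33.1% and 31.0%, since their models are 2721 and 10231 nt long. Mib1-201 alone stood at 6.49 and 6.08 TPM.

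**Figure D2:**
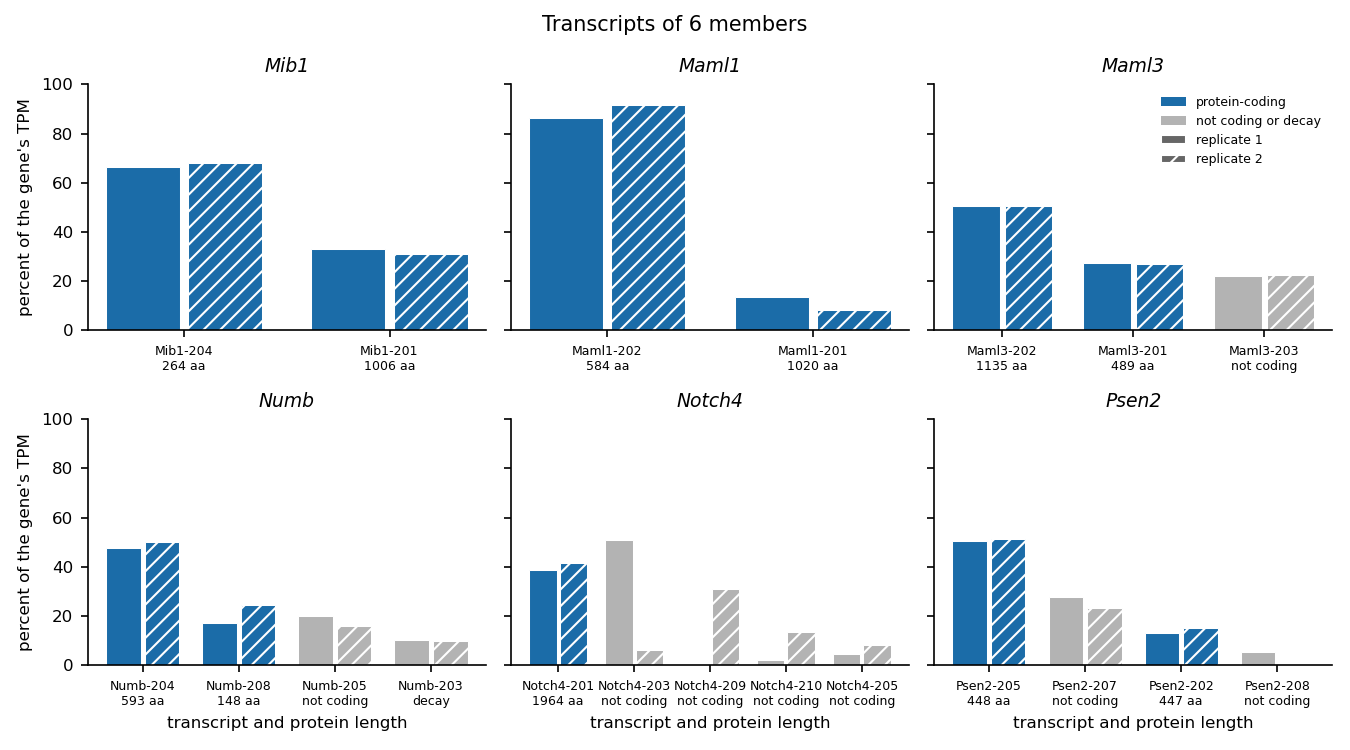
Percent of the gene's TPM held by each transcript of Mib1, Maml1, Maml3, Numb, Notch4 and Psen2 that reached 5% in a library, with plain bars for replicate 1 and hatched bars for replicate 2, blue where the transcript is coding and grey where it is not or is typed as subject to decay. The 264-residue Mib1-204 and the 584-residue Maml1-202 hold more than the full forms in both libraries, and the grey Notch4 bars differ between the libraries.

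Glycosylation of the receptor sets which ligands it answers to. Pofut1 adds the O-fucose that Lfng, Mfng and Rfng, the Fringe enzymes, extend. Rfng (chromosome 11, 120780746 to 120784207) was the most abundant Fringe, at 36.4 and 40.3 TPM, and held 63.1% ± 1.23 of the Fringe sum. Mfng (chromosome 15, 78755882 to 78773475) was at 11.7 and 12.5 TPM, and Lfng (chromosome 5, 140607320 to 140615545) at 10.4 and 10.3 TPM. Rfng was 3.15-fold above Mfng, past the spread, and Mfng and Lfng differed by 1.17-fold, within it. A non-coding transcript, Rfng-202, held 38.4% and 41.1% of Rfng, and on coding transcripts alone Rfng was at 22.4 and 23.8 TPM, above the gene levels of Mfng and Lfng in both libraries. Pofut1 (chromosome 2, 153241533 to 153270247) was the lowest of the group at 7.60 and 7.34 TPM. A retained intron model, Pofut1-205, held 38.1% and 45.7% of it, and its coding transcripts were at 4.71 and 3.98 TPM. Lfng exceeded Pofut1 by 1.38-fold, a log2 ratio of 0.4619 against a limit of 0.4615, and the ratio of replicate 1 alone, 0.45, was within it, as were ratios with 1 TPM added and from posterior means.

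The cleaving enzymes held the most abundant member, and all 15 pairs among their genes were past the spread. Psenen (chromosome 7, 30561863 to 30563627), the smallest subunit of gamma-secretase, was at 119 and 114 TPM, above 90.2% of detected genes. Ncstn (chromosome 1, 172066013 to 172082795), the substrate-binding subunit nicastrin, was at 84.6 and 88.8 TPM. Aph1a, a scaffold subunit, was at 19.7 and 16.8 TPM, and Psen2, a catalytic subunit, at 12.5 and 12.1 TPM. The 4 gamma-secretase genes among the members, whose products join in a single complex, thus ran from 12.3 to 117 TPM. This range is of single genes and not of whole subunits, since genes here can have paralogs for the same subunit. Aph1a is not the sole gene for its subunit, and it held 59.2% ± 4.28 of the Aph1 sum, with Aph1b at 8.62 and 8.98 TPM and Aph1c at 3.35 and 4.11 TPM; Aph1b and Aph1c are close copies that can share reads. With these paralogs added the Aph1 genes summed to 30.8 ± 1.29 TPM.

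Of the proteases that make the first cut, Adam10, the main enzyme for ligand-activated Notch, was at 50.3 and 53.7 TPM and Adam17 at 31.7 and 35.2 TPM. Adam10 was 1.55-fold higher, past the spread. Adam10-201 held 98.9% and 98.8% of its gene. In Adam17 a model typed as subject to nonsense-mediated decay, Adam17-203, held 2.86% in replicate 1 and 10.6% in replicate 2, on 81.8 and 447 expected counts, and its posterior mean counts were 193 and 529. Psen2-205, of 448 residues, held 50.6% and 51.1% of Psen2, and non-coding models held much of the rest, Psen2-207 alone 27.9% and 23.0%, so that coding transcripts of Psen2 were at 7.93 and 8.05 TPM. Psenen had 1 transcript in the tables. The largest steps between neighbours in the group, Ncstn over Adam10 at 1.67-fold and Adam17 over Aph1a at 1.83-fold, held in both libraries. Scaling by length mattered most here: Psenen, with an effective length of 549 nt, had fewer expected counts (1364 and 1730) than Ncstn (4365 and 6068), and its place at the top is one per length.

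In the nucleus Rbpj (chromosome 5, 53466152 to 53657362), which binds DNA, was at 32.9 and 36.6 TPM, close to the level of Notch2. The Mastermind-like coactivators were lower. Maml2 was at 15.7 and 17.0 TPM, Maml1 at 6.71 and 6.21 TPM and Maml3 at 4.40 and 4.30 TPM. Rbpj exceeded Maml2 by 2.11-fold and Maml2 exceeded Maml1 by 2.51-fold, both past the spread, and Maml1 over Maml3 at 1.47-fold was not. Maml2 held 60.2% ± 2.24 of the Mastermind-like sum. The 3 coactivators together reached 27.2 ± 0.460 TPM, below Rbpj alone.

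The full forms of Maml1 and Maml3 were a part of their gene levels. Maml1-201, of 1020 residues, held 13.6% and 8.17% of Maml1, at 0.910 and 0.510 TPM, while Maml1-202, annotated with 584 residues, held 86.4% and 91.8%. Maml3-202, of 1135 residues, held 50.5% and 50.6% of Maml3, next to a 489-residue model with 27.4% and 27.0% and a retained intron model with 22.1% and 22.4%. The Maml3 shares differed by less than 1 percentage point between libraries. No protein length is given for Rbpj and for the Maml2 transcripts that had counts, whose models changed in length between the annotation of the tables and the one used for names. Rbpj-203 held 93.4% and 89.3% of Rbpj, and Maml2-203 held 82.5% and 80.8% of Maml2.

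The targets spanned the widest range of any role, from Hes6 to Hes7, and 25 of their 28 pairs were past the spread. Hes6 (chromosome 1, 91411483 to 91414038), a Hes family member known to antagonise Hes1 and to act in myogenic and neural cells, was at 94.3 and 97.0 TPM. Hes1 (chromosome 16, 30064384 to 30067796), a repressor induced by Notch in many tissues, was at 41.2 and 41.7 TPM. Hes6 was 2.30-fold above Hes1, past the spread, and held 68.7% ± 0.762 of the sum of the 4 Hes members. Hes6 is listed with the targets by family, and it is known to be less dependent on Notch than Hes1. The markers of myogenic cells, in which Hes6 is expressed, summed to 248 and 276 TPM, led by Myog at 150 TPM. Of these 6 markers 2 were not detected, and the lowest, Pax7, was at 0.755 TPM. The part of the myogenic markers in the level of Hes6 was not tested.

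The Hey genes, repressors known from vessels, heart and muscle, were led by Hey1. Hey1 (chromosome 3, 8663359 to 8667256) was at 22.2 and 20.7 TPM and held 74.4% ± 3.25 of the Hey sum. Heyl (chromosome 4, 123233556 to 123249875) was at 4.70 and 5.38 TPM, and Hey2 (chromosome 10, 30832359 to 30842801) at 2.04 and 2.61 TPM. The steps from Hes1 to Hey1, at 1.93-fold, and from Heyl to Hey2, at 2.13-fold, were past the spread. The first was not past it in expected counts not divided by length, with a log2 ratio of 0.18, and the second not at 3 times the SD. Nrarp (chromosome 2, 25180758 to 25183339), a target that limits Notch signalling in feedback, was between Hey1 and Heyl at 10.2 and 12.4 TPM. Its value carries a limit: a gene annotated antisense to it, Gm38287, covers 2051 of its 2582 exonic nt. Gm38287 was at 3.51 and 1.80 TPM, and how strand was used in counting is not given in the sources used here, so reads of the pair may have been divided between them.

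Hes5 and Hes7, the members not detected in both libraries, are known from neural progenitors and from the oscillator of the presomitic mesoderm. Hes5 (chromosome 4, 154960923 to 154962371) was at 1.93 TPM in replicate 1 and 0.780 TPM in replicate 2, on 32.7 and 25.4 expected counts. Hes7 (chromosome 11, 69120404 to 69124055) was at 0.980 and 0.610 TPM, on 35 and 29 expected counts. Both genes were lower in replicate 2. Part of the gap in Hes5 came with a short non-coding model, Hes5-202, which held 39.2% of it in replicate 1 on 3.95 counts and 0% in replicate 2. The coding transcript stood at 1.17 and 0.780 TPM. Hey2 over Hes5 and Hes5 over Hes7 were within the spread, so the order at the bottom of the targets is not resolved. These counts were above the limit that a count of 0 allows, 3 counts, in both libraries. Of 7 neural markers 2 were detected, Stmn2 at 11.6 TPM and Tubb3 at 6.78 TPM, both neuronal, and the progenitor factor Sox1 was at 0 in both libraries. The list summed to 20.3 TPM in replicate 1 and 16.8 TPM in replicate 2, lower in the same library as Hes5, and its part in the level of Hes5 was not tested.

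Between the libraries the members were close to each other. The log2 ratio of replicate 2 over replicate 1, from TMM-scaled expected counts with 0.5 added, was within 0.25 of 0 for 30 of the 35 members, and 22 were above 0 and 13 below. No member was over 2-fold apart, and 2.46% of the 17982 genes whose mean reached 10 counts were. On log2 TPM with 0.1 added, no member's libraries differed by over 2 times the SD of such differences among genes of like abundance. The share of those 17982 genes that did was 2.98%. The median size of the log2 ratio was 0.10 for the members and 0.10 for those genes. Read against these low shares, a count of 0 among 35 members does not set them apart.

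The 5 members over 0.25 were Hes5, Hes7, Hey2, Dlk2 and Nrarp. Hes5 had a log2 ratio of -0.78 with a 95% exact Clopper-Pearson counting interval from -1.64 to -0.04, and Hes7 one of -0.69 with an interval from -1.46 to 0.05. Hey2 had 0.33, with an interval from -0.02 to 0.70, and Dlk2 had 0.27, with an interval from 0.02 to 0.53. Nrarp had 0.26, with an interval from 0.11 to 0.42. The intervals cover counting error only, since PCR reads without molecular identifiers are not independent molecules. For Nrarp, Dlk2 and Hes5 they exclude 0, for Hes5 by a small margin. Intervals of members with smaller ratios exclude 0 too, such as Notch2, from 0.05 to 0.14, and Pofut1, from -0.34 to -0.04. The share of all genes whose interval excludes 0 was not taken, so such an interval does not set a member apart. The 2 libraries were compared on log2 TPM with 0.1 added, in units of the SD of such differences among genes of like abundance. The difference was 1.59 of these units for Nrarp, 1.35 for Dlk2 and 1.39 for Hes5. These values rest on TPM and not on the count ratios above.

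**Figure D3:**
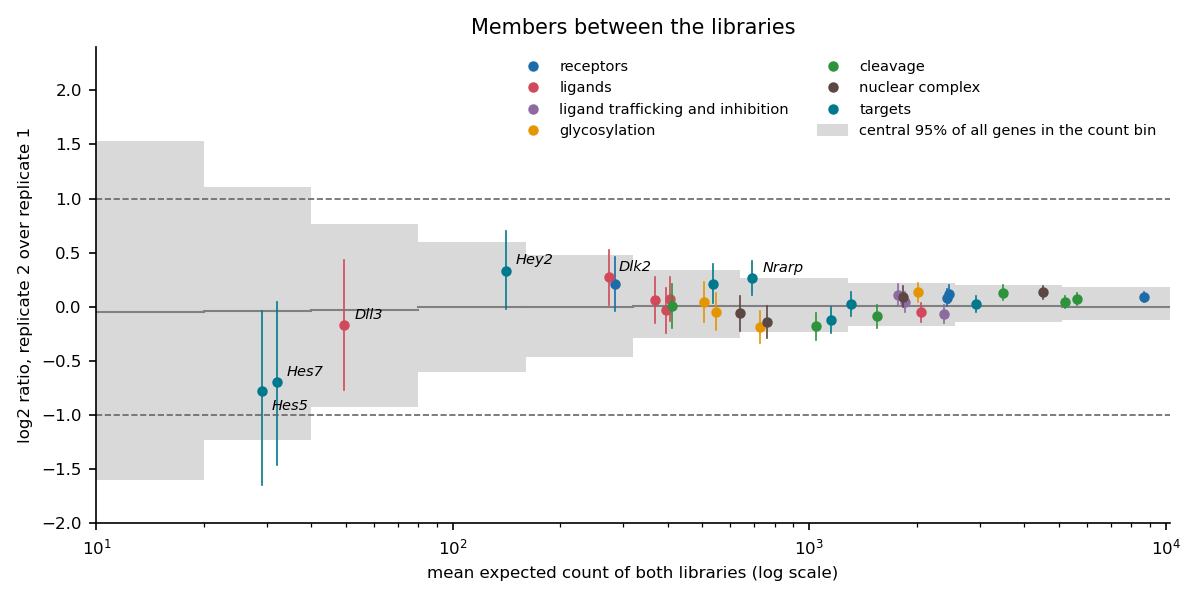
Log2 ratio of replicate 2 over replicate 1 against the mean expected count on a log axis, with members as points coloured by role, their 95% counting intervals as vertical lines, and the central 95% of all genes in each count bin as the grey band, their median as a grey line and a 2-fold difference as dashed lines. All 35 points lie inside the band, and the points farthest from 0, Hes5 and Hes7, have the lowest counts.

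Across the members 27 had several transcripts in the tables. In 23 of them the same transcript held over 50% of the gene's TPM in both libraries, compared with 70.2% of genes at 1 TPM or more with several transcripts. The 4 without one were Notch4, Numb, Dlk2 and Pofut1. In the 27 members with several transcripts, coding transcripts held a median of 91.4% of the TPM. The median was 91.0% for protein-coding genes at 1 TPM or more with several transcripts. Under 75% from coding transcripts, as the mean of the libraries, were 6 members, Notch4, Pofut1, Rfng, Psen2, Dll3 and Numb, compared with 29.2% of protein-coding genes with several transcripts. In 24 members with several transcripts protein lengths could be given, and there the transcripts with the longest protein held at least 80% of the TPM in both libraries in 11 members and under 50% in both in 6. The other 7 lay between or differed in class between the libraries. The share of all genes in these classes was not taken, so these counts do not set the members apart. The 6 were Notch4, Dlk2, Numb, Mib1, Adam17 and Maml1. Adam17 and Dlk2 are of a different kind from Mib1 and Maml1: their longest forms exceed their main forms by few residues, 846 against 827 in Adam17 and 425 against 382 in Dlk2.

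**Figure D4:**
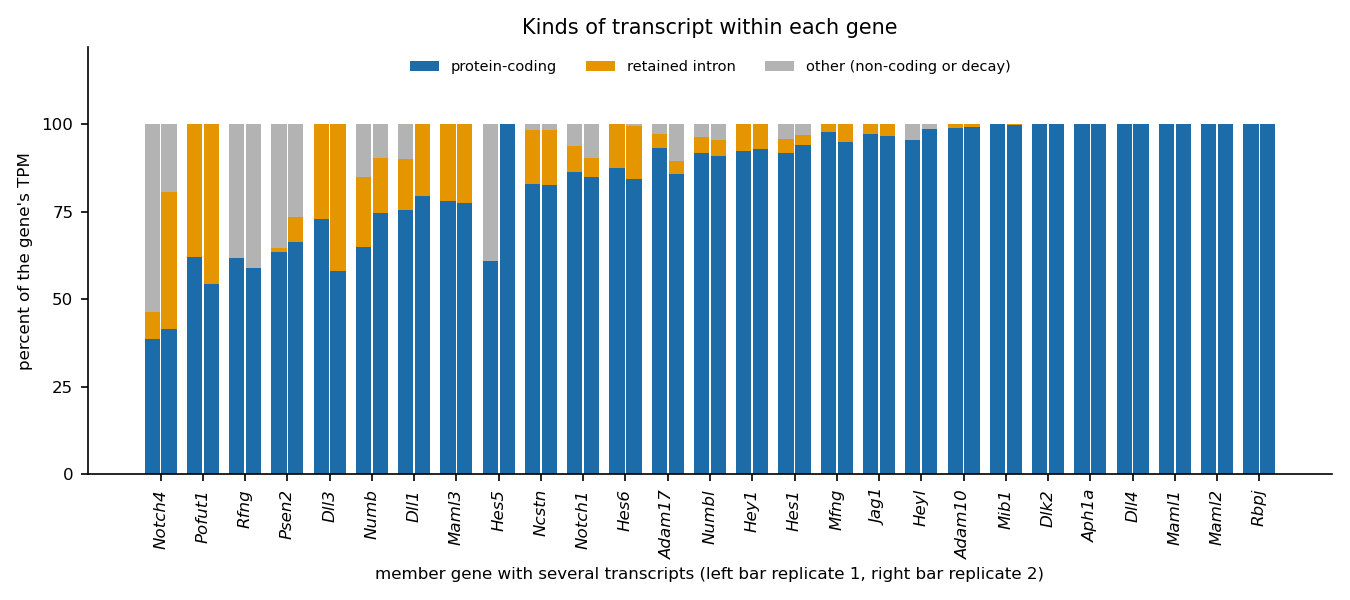
Percent of the gene's TPM from protein-coding transcripts (blue), transcripts with a retained intron (orange) and other non-coding or decay transcripts (grey) for the 27 members with several transcripts, left bar replicate 1 and right bar replicate 2. Notch4 has the lowest blue share, 38.7% and 41.6%, and the bars of Hes5 differ between the libraries, from 60.8% to 100% blue.

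The exons of 14 members overlap those of another annotated gene, and in 5 of these the overlap covers over 10% of the member. They are Nrarp, Hes5 (31.8%, with Gm20421), Dll1 (20.5%, with A930024N18Rik), Hes7 (12.9%, with 9130213A22Rik) and Aph1a (12.9%, with Car14). All 5 partners lie on the opposite strand. A930024N18Rik, Gm20421 and 9130213A22Rik were each under 0.5 TPM in both libraries, while Car14, a carbonic anhydrase, was at 30.2 and 29.9 TPM, above Aph1a. Psenen shares 119 of its 1275 exonic nt, or 9.33%, with U2af1l4, at 86.4 and 78.5 TPM. That exonic length is from the annotation used for names. The Psenen transcript that was quantified is 648 nt long, a length that differs between the annotations, and the overlap as a share of it was not taken. Without a statement on strand, reads from the shared parts cannot be told apart. The share of all genes with such overlaps was not taken, so these counts do not set the members apart.

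Of 46 further genes of the pathway, chosen by function from general knowledge, 41 were detected. The shares detected were 34.6% of all genes and 61.0% of protein-coding genes. The list was chosen with earlier results of these data known. The median of the 46 was 12.5 TPM, near that of the members. Among those with a mean of at least 10 counts none was over 2-fold apart between the libraries, compared with 2.46% of all such genes. The highest were Mfap2, a microfibril protein reported to bind Notch ligands and receptors, at 666 and 631 TPM, Dlk1, Ctbp1, a corepressor, at 245 and 227 TPM, and Ncor1, a corepressor of Rbpj, at 140 and 144 TPM. These are genes with wide roles outside Notch signalling. The 5 that were not detected were Neurl1b, a ubiquitin ligase for ligands, Ptcra, a Notch target in thymocytes, and the transcription factors Hes2, Hes3 and Helt. Hes2 had 1 count in replicate 1 and 0 in replicate 2, Hes3 had 1 in each, and Helt had 0 and 1, so nearly all of the summed TPM of the Hes family was that of Hes6 and Hes1, with low levels of Hes5 and Hes7.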

How the data were processed

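Total RNA was sequenced from 2 libraries of E13.5 limb. Per the labels the build was mm10, and per the deposited text files the annotation was GENCODE M4. Which aligner and quantifier were run, and whether strand was used, is not given in the sources used here. The authors deposited expected counts, TPM, FPKM, posterior means of TPM and bounds of their credibility intervals, a signal in TPM units, for each gene, and the percent of each gene's TPM held by each transcript, per the file headers. Bare-number rows, 26248 in all with 0.000187% of the counts, were left out. Symbols matched 42462 of 43346 genes. GENCODE M21, on the same assembly, gave positions, transcript names and types, and protein lengths only where the transcript's length was the same in both releases. Upstream sequences came from RefSeq. TMM scaling and the dispersion over 17441 genes came from edgeR 4.0.16 under R 4.3.3, on rounded expected counts. DESeq2 1.42.0 gave alternative size factors. The remaining steps used Python 3.11.15, pandas 2.3.3 and scipy 1.17.1. The ratio of libraries and the dispersion were tested on simulated data. All 35 members are named. Of the further pathway genes the rule named the 4 highest, the 4 lowest and family partners of members, 1 of which is not reported here, and Neurl1b, named to complete a count of 5, was chosen after its value was seen, as were Tbx5, Pitx1 and Tubb3 among the markers. The members, the lists and the markers were chosen with earlier results of these data known. A comparison of protein sequences was planned and is not analysed here. Counting noise alone would give a chi-square per degree of freedom near 1 between the libraries, and it was 5.27. This value cannot tell separate tissue samples from separate preparations of 1 RNA. The libraries were counted as 2 samples by their labels.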

Additional observations from a re-analysis of the deposited data

How the results depend on the processing

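No paired analysis was possible because the study has 1 group. Detected members numbered 26 to 35 over thresholds from 0.5 to 5 TPM, 33 and 34 in single libraries, and 32 on coding transcripts alone, an alternative chosen after seeing the data, as was the comparison with the spread between libraries. Pairs past the spread numbered 62 to 71, and 66 to 71 in single libraries. Without division by length 9 of 28 neighbouring pairs changed sign: the log2 ratio became -0.37 for Numbl over Mib1, -0.42 for Lfng over Pofut1, -1.74 for Psenen over Ncstn and -0.11 for Ncstn over Adam10, which had been past the spread, and -0.58 for Dlk2 over Dll1, -0.013 for Notch3 over Notch1, -0.074 for Numb over Numbl, -0.12 for Mfng over Lfng and -0.13 for Hes5 over Hes7, which had not. Dlk2 over Dll1 was then past the spread in the opposite direction. Posterior means put Notch3 over Notch1 at -0.31, within the spread. In replicate 2 alone Dlk2 over Dll1 and Hey2 over Hes5 were past the spread, and with 100 genes of like abundance Maml1 over Maml3 was. With TPM in place of counts 1 member, Hes5, was over 2-fold apart between the libraries. Members with a dominant transcript numbered 17 at over 75%, 21 from posterior means, and 23 and 26 in single libraries. The longer motif GTGGGAA was found for 5 members, not 9. All levels stayed within 1.5-fold of the reported ones under FPKM and posterior means, and 30 of 35 did on coding transcripts alone, the others being Notch4, Dll3, Rfng, Pofut1 and Psen2. Hes5 without replicate 1 was at 0.780 TPM. Counts of 25.4 to 54 limit Hes5, Hes7 and Dll3.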
